A study of Mus musculus with 24 samples.

Results

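The early transcriptional answer of macrophages to bacterial lipopolysaccharide (LPS) was measured as the difference between cells given LPS for 1 h and cells left unstimulated for 1 h. It rests on 6 of the 24 RNA sequencing libraries of the series. They are 3 labelled LPS at 1 h and 3 labelled M0 (unstimulated) at 1 h. The comparison covers all genes with enough reads, 12765 of 43629 gene identifiers. Enough reads was judged over all 8 groups of the series, so a tested gene can lack reads in these 6 libraries. A gene that passed only through stimulated groups, with almost no reads in unstimulated cells, could only be called higher. All cells were bone marrow-derived macrophages of wild-type C57BL/6 mice, grown from marrow over 7 days with CSF-1 at 20 ng/mL, the factor on which macrophages depend, and CSF-1 stayed in the medium of both groups. LPS was given at either 20 or 100 ng/mL per the labels, which do not tie a dose to these libraries. Whether replicates were separate mice or cultures is not stated. The p-values thus reflect only the scatter within groups over all 24 libraries, which were fitted together, possibly technical scatter. Libraries of the same study taken after 18 h with LPS or without it, and after 1 h with LPS and 50 ng/mL interferon gamma (IFNg), were used to show where the 1 h response differed. In bulk RNA, fewer cells of a type and less RNA per cell cannot be told apart.

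As background, LPS is bound by the co-receptor CD14 and handed to TLR4 and its partner Ly96. TLR4 signals through the adaptors Tirap and Myd88 at the cell surface and through Ticam2 and Ticam1 from endosomes, and both routes lead to IkappaB kinases, MAP kinases and interferon regulatory factors. NF-kappaB dimers are held in the cytoplasm by IkappaB proteins until these are degraded. The freed dimers induce cytokine genes and also the genes of their own inhibitors, such as IkappaB alpha and A20. Transcripts that appear within the first hour in macrophages are therefore a mixture of secreted alarm signals, transcription factors and brakes on the signal.

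The 6 libraries held 4181890 to 5054924 reads with LPS and 4902540 to 6513797 in unstimulated cells. In a principal component analysis of these 6, 74.4% of the variance lay on the first axis, which put the LPS libraries (-42.3 to -37.9) apart from the unstimulated ones (38.9 to 41.5). Counts scaled to library size (CPM) are given after scaling by the trimmed mean of M-values (TMM), which takes most genes as unchanged, and fold changes are log2 values of LPS over unstimulated ± SE with 3 libraries in each group. The 11 macrophage markers were all tested, 2 were called lower (among them Fcgr1, a call lost in 2 alternatives), and their summed level was 22100 to 23300 CPM with LPS and 20100 to 23700 CPM in unstimulated cells. Markers of T and NK cells (4.94 to 7.73 CPM with LPS, 5 to 9.01 CPM unstimulated), fibroblasts (0.449 to 1 CPM with LPS, 0.294 to 1.38 CPM unstimulated) and erythroid cells (0 to 0.5 CPM with LPS, 0.294 to 0.691 CPM unstimulated) were low, and Cd3e, Cd3g, Dcn, Lum and Hba-a1 were at 0 in all 6. Most of the T and NK sum was Cd4 (mean 5.98 CPM with LPS and 5.55 CPM without). B cell markers summed to 46.6 to 47.5 CPM with LPS and 42.5 to 62.1 CPM without, mostly Ighm (mean 45.2 and 50 CPM). The 10 neutrophil markers summed to 191 to 202 CPM with LPS and 165 to 204 CPM without, with 1 of 7 tested members called. The 6 dendritic cell markers summed to 8.98 to 10.8 CPM with LPS and 2.64 to 5.25 CPM without, and 2 of 4 tested members rose, Xcr1 and Zbtb46 (the call of Zbtb46 lost in 2 alternatives); the part of such cells in the results was not tested.

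LPS changed 2837 genes at an adjusted p below 0.05 (edgeR quasi-likelihood test, Benjamini-Hochberg), 22.2% of those tested. Of these, 1376 were higher (10.8%) and 1461 lower (11.4%), and 541 (4.24%) and 385 (3.02%) changed at least 2-fold. The groups' libraries did not overlap for 4441 genes (34.8%). The split between higher and lower rests on the scaling. The TMM factors were 0.957 to 0.978 for the LPS libraries and 1.088 to 1.116 for the unstimulated ones. When libraries were scaled by their totals alone the median of all genes moved to -0.19, and 895 genes were higher and 3548 lower. Named genes whose call was lost under an alternative are marked as such. Of genes given below as not called, Hmox1, Parp1, Irak1, Cd86 and Mx1 were called lower by library-size scaling, with adjusted p down to 0.00077 (Hmox1). Mx1 was also called lower without unstimulated replicate 2, and Bst2, Cd80, Csf1r and Irf7 were each called higher in 1 alternative. Of the large changes more were increases, as the plot of fold change against level shows.

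**Figure D1:**
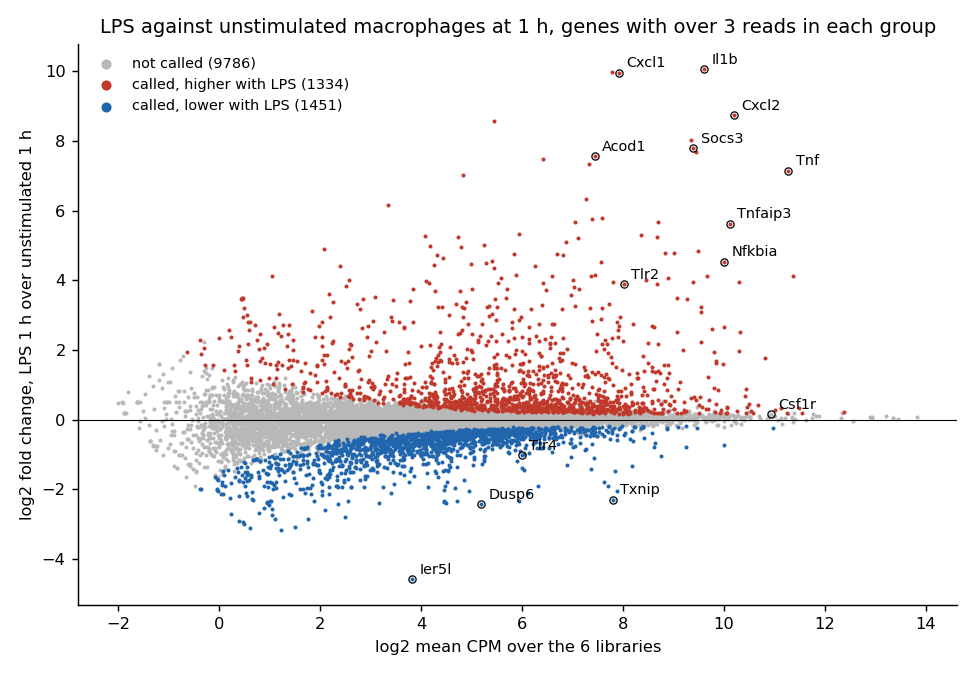
Fold change of LPS over unstimulated at 1 h (log2, vertical) against mean level over the 6 libraries (log2 CPM, horizontal) for 12571 tested genes with over 3 reads in each group; 1334 called higher in red, 1451 called lower in blue, the others in grey. Increases reach 10.05 (Il1b), and the largest labelled decrease is Ier5l at -4.58.

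The largest gain in CPM was that of the gene of tumour necrosis factor. Tnf (gene ENSMUSG00000024401, chromosome 17, 35199381 to 35202007, GRCm38) had 4820, 4920 and 5040 CPM in the LPS libraries, against 43.3, 31.4 and 29.1 CPM in the unstimulated libraries, a log2 change of 7.14 ± 0.13. The groups were far apart, and each was tight within itself. Tnfaip2, a TNF-induced gene, had 4820, 4620 and 5460 CPM with LPS and 280, 251 and 325 CPM without, Cxcl2 had 2340, 2410 and 2330 CPM with LPS and 7.6, 3.23 and 5.63 CPM without, and the heparan sulfate proteoglycan gene Sdc4 had 2390, 2190 and 2510 CPM with LPS and 164, 136 and 163 CPM without. The other genes among the 10 with the largest gain in CPM were Tnfaip3, Ccl9, Nfkbia, Plek, a substrate of protein kinase C, Il1b and Sqstm1. Together the 10 took 2.55% to 2.75% of all reads in the LPS libraries and 0.239% to 0.282% in the unstimulated libraries. The chemokine gene Ccl9 had 2730, 2750 and 2870 CPM with LPS and 751, 755 and 964 CPM without.

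Genes of the receptor and its signal chain moved in both directions, 3 of them at least 2-fold higher and 1 at least 2-fold lower. Of 21 members of the TLR4 complex and its adaptors, 10 were called higher and 3 lower, with a median log2 change of 0.19, against -0.002 over all tested genes (8 and 7, with a median of 0, by library-size scaling). Cd14, the co-receptor that hands LPS on, had 1480, 1230 and 1520 CPM with LPS and 369, 332 and 410 CPM without (1.93 ± 0.10). The kinase genes Map3k8, which feeds the ERK branch (1.67 ± 0.13), and Irak2 (1.29 ± 0.09) rose, as did the adaptors Ticam1 (0.84 ± 0.09), Myd88 (0.61 ± 0.08) and Ticam2 (0.58 ± 0.17, lost in 4 of 15 alternatives, with adjusted p up to 0.077). The receptor gene Tlr4 fell to 45.8, 40.4 and 39.8 CPM with LPS, against 84, 81.4 and 90.7 CPM in unstimulated cells (-1.02 ± 0.15, adjusted p = 2.7e-06). The groups did not overlap for Cd14 or Tlr4, which moved in opposite directions. Tab1, an activator of the kinase TAK1 (-0.87 ± 0.14), and the adaptor Tirap (-0.65 ± 0.17) fell as well; Tirap missed the threshold without LPS replicate 1 (adjusted p = 0.052). Ly96, the partner of Tlr4, had 11, 10.6 and 11 CPM with LPS and 8.02, 9.11 and 11.8 CPM without (0.19 ± 0.17, adjusted p = 0.5), and Irak4 and Irak1 were not called (-0.01 ± 0.08 and -0.06 ± 0.09).

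Among the other Toll-like receptors, Tlr2, which senses bacterial lipoproteins, had 492, 478 and 488 CPM with LPS and 30.3, 32.6 and 36.2 CPM without (3.88 ± 0.09), with no overlap. Its partners Tlr1 (0.91 ± 0.09) and Tlr6 (0.91 ± 0.15) rose less. In all, 4 of 9 tested members rose and none fell (3 and 1 by library-size scaling); the call of Tlr7 (0.35 ± 0.11) was lost in 5 alternatives, with adjusted p up to 0.26.

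Most genes of the NF-kappaB system rose. Of 17 subunits, IkappaB proteins and kinases, 14 rose and 1 fell, with a median of 2.21, and of 20 genes around the ubiquitin editor A20, 17 rose and 1 fell, with a median of 1.67. Summed over the NF-kappaB list, the LPS libraries held 5520 to 5760 CPM and the unstimulated ones 850 to 969 CPM. Matches to the NF-kappaB consensus decamer were looked for on both strands of RefSeq promoter windows (GRCm38.p6, 250 bases before to 50 after each start). The stretches that follow, of 80 bases each and on the strand of the gene, are shown because they hold such a match, in capitals, before the start of 3 of the most induced genes and of 4 genes that brake NF-kappaB.
Cxcl1: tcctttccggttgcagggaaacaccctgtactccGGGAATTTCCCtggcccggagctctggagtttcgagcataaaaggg
Cxcl2: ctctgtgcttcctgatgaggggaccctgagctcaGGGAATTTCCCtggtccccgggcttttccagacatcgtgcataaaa
Ifnb1: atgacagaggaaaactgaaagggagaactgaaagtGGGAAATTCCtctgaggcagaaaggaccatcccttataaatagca
Nfkbia: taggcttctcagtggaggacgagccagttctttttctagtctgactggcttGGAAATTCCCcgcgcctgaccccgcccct
Nfkbie: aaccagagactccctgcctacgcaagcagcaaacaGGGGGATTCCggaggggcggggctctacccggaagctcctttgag
Tnfaip3: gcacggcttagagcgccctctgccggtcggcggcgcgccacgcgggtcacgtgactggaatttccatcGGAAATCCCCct
Tnip3: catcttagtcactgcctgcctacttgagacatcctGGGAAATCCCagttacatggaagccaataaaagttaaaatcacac
On the plus strand these lie at chr5:90891140-90891219 for Cxcl1, chr5:90903768-90903847 for Cxcl2, chr17:45555559-45555638 for Nfkbie and chr6:65590309-65590388 for Tnip3. On the minus strand they lie at chr4:88522866-88522945 for Ifnb1, chr12:55492648-55492727 for Nfkbia and chr10:19015411-19015490 for Tnfaip3. In Cxcl1 and Cxcl2, neighbours on chromosome 5, the capitals cover a match on each strand, so that the overlapping pair forms 1 run of 11 bases, the same letters in both genes. These 11 bases begin 71 bases before the start of Cxcl1 and 97 bases before that of Cxcl2. Of the 20 genes with the largest increase, 15 had a window and 3 of these a match before the start, and of the other 21 NF-kappaB and A20 genes that rose at least 2-fold, 18 had a window and 8 a match. Over windows of all tested genes the share was 4.6% of 11577, counted per window and not per gene. A match describes letters in the window and not bound factor.

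Nfkbia, encoding IkappaB alpha, the inhibitor that is degraded and made again in each cycle, had 1970, 1990 and 1940 CPM with LPS and 87.2, 75.8 and 93.1 CPM in unstimulated cells (4.53 ± 0.09). Nfkbiz, the nuclear IkappaB zeta that permits induction of secondary genes, had 1360, 1410 and 1380 CPM with LPS and 8.02, 5.88 and 5.82 CPM without (7.69 ± 0.13). Neither gene's groups overlapped. Nfkbie (3.80 ± 0.12), Nfkbib (2.74 ± 0.10), the atypical members Bcl3 (2.64 ± 0.14) and Nfkbid (2.36 ± 0.11), and the precursor and subunit genes Rel (3.28 ± 0.17), Nfkb2 (2.28 ± 0.09), Relb (2.21 ± 0.09), Nfkb1 (1.28 ± 0.08) and Rela (1.02 ± 0.08) rose too. Rel, the c-Rel subunit, had 137, 145 and 173 CPM with LPS and 16.3, 15.4 and 14.8 CPM without, and Rela had 204, 187 and 203 CPM with LPS and 103, 90.7 and 98.4 CPM without. The kinase genes Ikbke (0.94 ± 0.10), Tbk1 (0.39 ± 0.07) and Ikbkb (0.28 ± 0.08, lost in 4 alternatives, with adjusted p up to 0.41) rose, Chuk was not called (0.09 ± 0.11), and Ikbkg was lower (-0.21 ± 0.07). The Ikbkg call was lost in 9 of the 15 alternatives, with adjusted p up to 0.21.

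A20, the enzyme that edits ubiquitin chains on the kinases upstream of NF-kappaB, is encoded by Tnfaip3. It had 2150, 2020 and 2380 CPM with LPS and 43, 40 and 50.9 CPM in unstimulated cells (5.62 ± 0.10). Its partners Tnip1 (2.69 ± 0.09) and Tnip3 (2.16 ± 0.07) rose, while Tnip2 was not called (0.20 ± 0.09). Tnip3 had 676, 673 and 668 CPM with LPS and 153, 136 and 162 CPM without. The survival genes Traf1 (4.42 ± 0.13), Cflar, an inhibitor of caspase-8 (3.50 ± 0.10), and Birc3, a ubiquitin ligase that blocks cell death (2.74 ± 0.12), were also higher. The ubiquitin ligase genes Rnf19b (2.67 ± 0.08) and Peli1 (2.27 ± 0.10) and the Nod2 adaptor kinase Ripk2 (2.34 ± 0.10) rose. Ripk1, the kinase that decides between survival and death at the TNF receptor, fell by a smaller amount (-0.42 ± 0.10, adjusted p = 0.0019).

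Brakes on other signals rose beside them. Socs3, the inhibitor of signals from the IL-6 receptor family, had 1330, 1210 and 1470 CPM with LPS and 8.99, 2.35 and 6.76 CPM without (7.79 ± 0.17). Errfi1, an inhibitor of the EGF receptor, had 865, 784 and 981 CPM with LPS and 32.3, 26.4 and 37.4 CPM without (4.78 ± 0.11), and Cish (4.98 ± 0.25) and Socs1 (1.41 ± 0.22) started low. These genes were separated between the groups in every library. Of 16 such inhibitors 8 rose and 1 fell, Socs6 (-0.61 ± 0.10); by library-size scaling 7 rose and 3 fell.

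Of 12 dual-specificity phosphatases, which switch off MAP kinases, 8 rose and 2 fell. Dusp1, which acts on p38 and JNK, had 1380, 1260 and 1390 CPM with LPS and 155, 132 and 143 CPM without (3.22 ± 0.08). Dusp2 (3.91 ± 0.12), Dusp5 (2.58 ± 0.12) and Dusp4 (1.64 ± 0.09) were higher as well. Dusp6, a cytoplasmic phosphatase specific for ERK, went the other way, with 12.8, 11.9 and 9.26 CPM with LPS and 56.3, 63.3 and 65.7 CPM without (-2.43 ± 0.12). The list of ERK targets, which holds Dusp6 too, had 6 of 12 members higher and 3 lower, with the survival gene Ier3 (4.35 ± 0.18) and Phlda1 (2.86 ± 0.12) up and Ccnd1, encoding cyclin D1 (-0.53 ± 0.09), and Etv5 (-0.43 ± 0.10) down.

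Factors that set the lifetime of messages moved in both directions. Of 15 regulators of mRNA decay 8 rose and 3 fell. Zfp36, encoding tristetraprolin, which binds AU-rich elements of cytokine messages, had 1340, 1200 and 1490 CPM with LPS and 154, 143 and 178 CPM without (3.08 ± 0.11). The nucleases Zc3h12a, Regnase-1 (2.83 ± 0.10), and Zc3h12c (4.13 ± 0.13) rose, as did Zfp36l1 (2.35 ± 0.15) and Btg2 (2.65 ± 0.10). Zfp36l2, the third member of the tristetraprolin family, fell to 91.6, 82.2 and 87.3 CPM with LPS, against 330, 317 and 333 CPM in unstimulated cells (-1.91 ± 0.09).

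**Figure D2:**
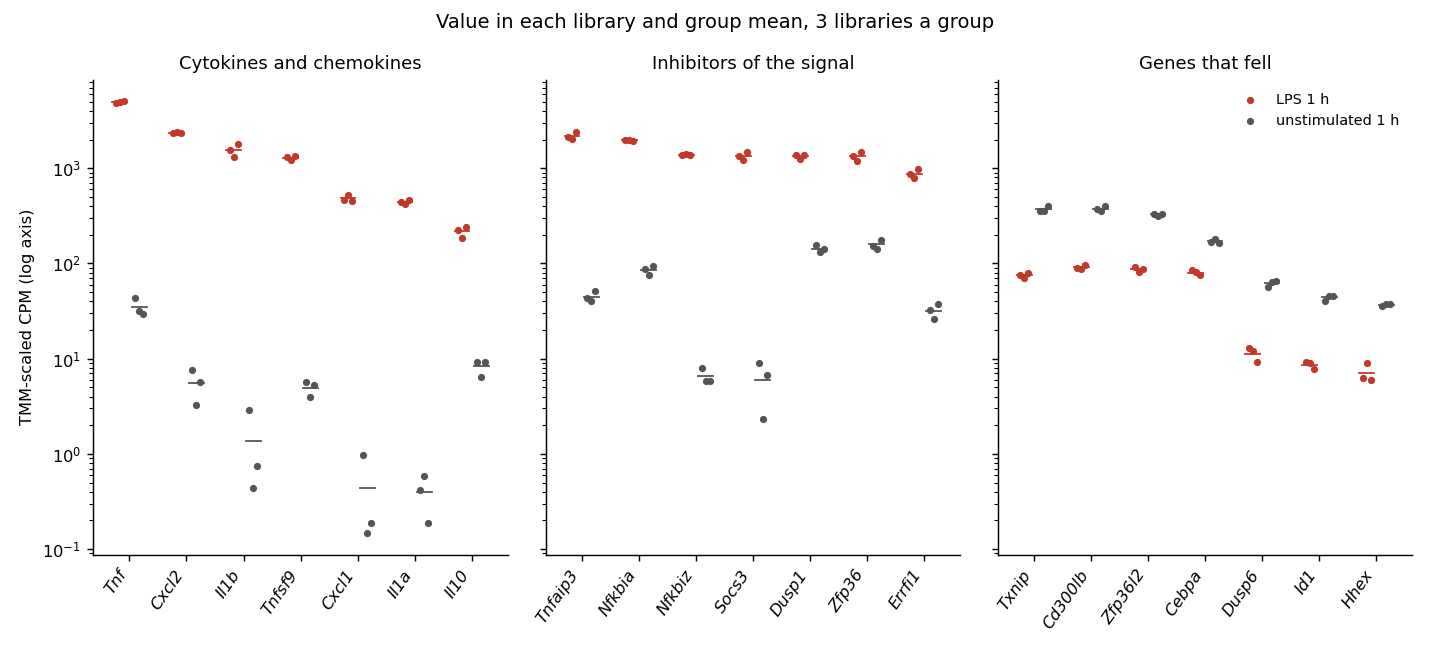
Level of 21 genes in each of the 6 libraries (TMM-scaled CPM, log axis), LPS 1 h in red on the left and unstimulated 1 h in grey on the right of each pair; lines are group means, 3 libraries a group. The groups do not overlap for any gene shown: Tnf lies at 4820 to 5040 CPM with LPS and 29.1 to 43.3 CPM without, and Txnip at 69.6 to 79.1 CPM with LPS and 352 to 399 CPM without.

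Immediate early transcription factors rose in 20 of 31 tested cases and fell in 2 (19 and 5 by library-size scaling). Junb had 1800, 1720 and 1770 CPM with LPS and 274, 267 and 300 CPM without (2.65 ± 0.08), Csrnp1 had 636, 624 and 666 CPM with LPS and 16.3, 15 and 17.3 CPM without (5.31 ± 0.09), and Egr2 had 438, 441 and 419 CPM with LPS and 56.7, 52 and 60.8 CPM without (2.94 ± 0.11). Maff (4.13 ± 0.12), Nr4a1 (2.32 ± 0.17), Egr1 (1.80 ± 0.12) and Myc (1.01 ± 0.09) were also higher. Fos had 116, 96.3 and 105 CPM with LPS and 104, 103 and 122 CPM without (-0.04 ± 0.10, adjusted p = 0.85), and its groups overlapped. Jun had 128, 126 and 129 CPM with LPS and 136, 127 and 144 CPM without (-0.08 ± 0.07), and Atf3 had 460, 536 and 463 CPM with LPS and 386, 413 and 449 CPM without (0.23 ± 0.09, called in 3 alternatives, with adjusted p down to 0.0052). Jun was called lower with library-size scaling (adjusted p = 0.0025). Ier5l had the largest decrease of the whole comparison by the naming rule: 1.42, 0.898 and 1 CPM with LPS and 24.6, 28.7 and 28.7 CPM without (-4.58 ± 0.23, gene ENSMUSG00000089762, chromosome 2, 30471537 to 30474219). Its relative Ier5 moved the other way (1.21 ± 0.08), as did Ier2 (1.40 ± 0.10), while the clock gene Per1 fell (-1.13 ± 0.13).

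Of 10 tested Kruppel-like factors 4 rose and 4 fell. Klf6 had 918, 947 and 953 CPM with LPS and 234, 229 and 243 CPM without (2.00 ± 0.06), with Klf7 (1.41 ± 0.13), Klf3 (0.91 ± 0.16) and Klf2 (1.04 ± 0.13) also higher. Klf10 (-0.84 ± 0.08) and Klf13 (-0.76 ± 0.08) were lower, as were Klf16 (-0.96 ± 0.12) and Klf11 (-0.84 ± 0.20).

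Of 21 tested interleukins and TNF family ligands 16 rose and none fell (16 and 1 by library-size scaling), with a median of 3.45. Members almost without reads in unstimulated cells, such as Il23a, could only be called higher. Il1b (gene ENSMUSG00000027398, chromosome 2, 129364570 to 129371139) had 1570, 1310 and 1780 CPM with LPS and 2.9, 0.441 and 0.751 CPM in unstimulated cells (10.05 ± 0.29), and Il1a had 441, 417 and 469 CPM with LPS and 0.415, 0.588 and 0.188 CPM without (9.99 ± 0.20). The unstimulated libraries held 21, 3 and 4 reads of Il1b, so the level before LPS is known only roughly. Unstimulated replicate 1 also held the most reads of Cxcl1 (7, 1 and 1), Acod1 (23, 6 and 6) and Ptgs2 (26, 7 and 5). It did not for Il1a (3, 4 and 1). Tnfsf9, the ligand of 4-1BB, had 1320, 1210 and 1350 CPM with LPS and 5.67, 3.97 and 5.26 CPM without (8.02 ± 0.13). Tnfsf4, the ligand of OX40, had 276, 239 and 210 reads with LPS and 2, 0 and 0 reads without, a ratio of depth-scaled counts of 525 (95% counting interval 145 to 4350). Lif, which acts through gp130, had 24.4, 26 and 32 CPM with LPS against 0.276, 0 and 0 CPM without, a ratio of 264 (72.5 to 2190).

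The anti-inflammatory cytokine Il10 was already at 225, 186 and 244 CPM with LPS, against 9.26, 6.47 and 9.2 CPM without (4.72 ± 0.15). Of the IL-12 family subunits, Il23a had 8.75, 10.3 and 9.26 CPM with LPS and 0.138, 0 and 0 CPM without, Il12b had 10.4, 9.43 and 4.75 CPM with LPS and 0.138, 0.441 and 0.188 CPM without, and Il27 had 16.3, 9.66 and 13.5 CPM with LPS and 1.24, 1.03 and 1.31 CPM without (3.45 ± 0.29). Il6 had 18, 27 and 16 reads with LPS and 0, 0 and 0 reads without. The IL-1 receptor antagonist Il1rn (1.37 ± 0.11), Osm (1.63 ± 0.15), Ebi3 (0.97 ± 0.09) and Il15 (0.94 ± 0.14) rose by less. Il18, whose product is stored and released by inflammasomes, was not called (0.13 ± 0.24), and Il12a was among the 7 members not tested.

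Of 17 tested growth factor genes 11 rose and none fell (10 and 2 by library-size scaling). Members without reads in unstimulated cells, such as Csf2, could only be called higher. Csf2, encoding GM-CSF, had 93, 79 and 75 reads with LPS and none in the unstimulated libraries, at least 119-fold higher when 3 counts are taken as the group's floor. Csf1, the factor the culture was grown in, had 91.6, 71.4 and 95.3 CPM with LPS and 6.5, 5.29 and 4.88 CPM without (3.93 ± 0.15). Pdgfb had 704, 663 and 695 CPM with LPS and 276, 262 and 272 CPM without (1.35 ± 0.09), and the EGF receptor ligand Hbegf (2.08 ± 0.15) and the stress cytokine Gdf15 (2.97 ± 0.15) rose. Csf3, encoding G-CSF, was still near its floor, with 9, 7 and 12 reads with LPS and 1, 0 and 0 without. Vegfa was not called (-0.39 ± 0.18), though 6 alternatives called it lower, with adjusted p down to 2e-05.

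Of the tested chemokine genes, 9 of 12 CC and 6 of 10 CXC members rose, beside 10.8% of all tested genes, and none fell. Members almost without reads in unstimulated cells, such as Cxcl3 and Cxcl11, passed the read filter through stimulated groups and could only be called higher. The 6 CXC members that rose include Cxcl11, annotated as a polymorphic pseudogene, with 2, 4 and 2 reads with LPS and 1, 0 and 0 without. The call of Cxcl11 was lost in 4 alternatives, with adjusted p up to 0.13. Of the CXC chemokines that attract neutrophils, Cxcl1 had 466, 528 and 452 CPM with LPS and 0.968, 0.147 and 0.188 CPM without (9.96 ± 0.23), and Cxcl2 rose by 8.73 ± 0.14. Cxcl3 had 13.4, 12.6 and 14.3 CPM with LPS and 0.415, 0 and 0 CPM without (count ratio 86.5, 29.1 to 423). Cxcl10, a gene that interferon can induce, had 308, 323 and 282 CPM with LPS and 8.29, 1.32 and 0.939 CPM without (6.32 ± 0.23). Cxcl9 had 1, 2 and 0 reads with LPS and 13, 0 and 0 without. Of the CC chemokines Ccl4 (5.68 ± 0.11), Ccl3 (5.23 ± 0.10), Ccl22 (4.54 ± 0.18), Ccl2 (3.89 ± 0.11) and Ccl7 (3.74 ± 0.14) rose, and Ccl5 had 76.1, 69.6 and 74.6 CPM with LPS and 2.49, 1.76 and 2.63 CPM without (5.00 ± 0.20). Ccl6 had 255, 274 and 259 CPM with LPS and 232, 253 and 283 CPM without (0.04 ± 0.10), and Pf4 was not called (0.18 ± 0.10).

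Receptors for such signals moved in both directions. Of 21 chemoattractant receptors 7 rose and 4 fell, and of 31 cytokine receptors 11 rose and 5 fell (6 and 6, and 8 and 9, by library-size scaling). Ccrl2, a receptor that presents chemerin, had 254, 254 and 273 CPM with LPS and 4.7, 4.7 and 6.2 CPM without (5.66 ± 0.15), and Ptafr, the receptor of platelet-activating factor, rose by 1.02 ± 0.08. S1pr2, for sphingosine 1-phosphate, fell to 30.7, 36.8 and 37.5 CPM with LPS, against 92.6, 89.2 and 95.2 CPM without (-1.40 ± 0.09), and Cxcr4 (-0.72 ± 0.17) fell. The receptor chain Il10ra had 300, 294 and 321 CPM with LPS and 54.6, 57 and 55.6 CPM without (2.45 ± 0.08), and Tnfrsf1b, the inducible TNF receptor, had 1480, 1350 and 1730 CPM with LPS and 487, 471 and 537 CPM without (1.61 ± 0.09). Tnfrsf1a, the constitutive TNF receptor, fell by a smaller amount (-0.36 ± 0.07). Ifngr1, a chain of the IFNg receptor (1.09 ± 0.07), and the death receptor Fas (2.38 ± 0.28) rose, and Il21r (-1.27 ± 0.21) fell. Csf1r, the receptor of the growth factor in the medium, had 2040, 1920 and 2210 CPM with LPS and 1920, 1700 and 1950 CPM without (0.15 ± 0.07, adjusted p = 0.18).

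Of 24 genes for costimulation and adhesion 14 rose and none fell, or 12 and 2 by library-size scaling. Icam1, the ligand of leukocyte integrins, had 1420, 1290 and 1450 CPM with LPS and 49.2, 45.7 and 51.6 CPM without (4.83 ± 0.08), Cd83 had 1490, 1550 and 1570 CPM with LPS and 81.7, 73.2 and 113 CPM without (4.11 ± 0.14), and Cd40 had 228, 213 and 240 CPM with LPS and 6.64, 6.17 and 6.95 CPM without (5.11 ± 0.15). Icosl (3.50 ± 0.14), Vcam1 (3.24 ± 0.25) and the integrin chain Itga5 (1.67 ± 0.09) rose as well. Sele, encoding E-selectin, an adhesion molecule known from endothelium, had 179, 138 and 158 reads with LPS and 1, 0 and 0 without, a ratio of 688 (123 to 27200). The endothelial markers summed to 2.65 to 3.75 CPM with LPS and 3.82 to 5.44 CPM without, none of the tested members was called, and Cldn5, Emcn and Tek were at 0. Cd86 was not called (-0.45 ± 0.27), and Cd80 was at 0.43 ± 0.19 (adjusted p = 0.12). Among pattern receptors 6 of 23 rose and 1 fell (6 and 5 by library-size scaling), with a median of 0.06, beside 10.8% and 11.4% of all tested genes. Olr1, a receptor of oxidized lipoproteins, had 153, 155 and 199 CPM with LPS and 1.38, 0.588 and 0.751 CPM without (7.47 ± 0.21), and the lectin Clec4e, which senses damaged cells and mycobacteria, had 382, 371 and 371 CPM with LPS and 7.46, 6.61 and 6.2 CPM without (5.78 ± 0.10).

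Interferon genes were induced in part. Ifnb1, encoding interferon beta, had 144, 105 and 98 reads with LPS and 1, 0 and 0 without, a ratio of 503 (89.7 to 19900). Irf1, a transcription factor, had 660, 674 and 659 CPM with LPS and 42.9, 39.2 and 41.5 CPM without (4.01 ± 0.08), and Irf4 (2.47 ± 0.16) and Stat5a (1.48 ± 0.10) rose; in all 5 of 15 factors rose and 2 fell (5 and 4 by library-size scaling). Irf8 (-0.52 ± 0.08) and Stat2 (-0.69 ± 0.12) fell, and Irf7 was not called (0.23 ± 0.20). Of 31 interferon-stimulated genes 11 rose and 2 fell, Oas2 and Trim21 (8 and 4 by library-size scaling). Oasl1 had 36.4, 25.6 and 35 CPM with LPS and 1.66, 1.76 and 2.82 CPM without (3.99 ± 0.24), with Ifit1 (3.26 ± 0.21), Isg15 (2.86 ± 0.15) and Rsad2 (2.26 ± 0.22) next. Members not called included Mx1 (-0.45 ± 0.22), Usp18 (0.54 ± 0.23) and Bst2 (0.22 ± 0.10). The Oas2 decrease (-0.56 ± 0.19) was lost in 7 alternatives, with adjusted p up to 0.3, and that of Trim21 (-0.44 ± 0.15) in 5, with adjusted p up to 0.25. Usp18 was called in 4 alternatives, with adjusted p down to 0.0066.

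Among genes of the inflammasome 6 of 16 rose and 1 fell (6 and 4 by library-size scaling). Nlrp3, the sensor that LPS primes, had 1120, 1050 and 1230 CPM with LPS and 105, 97.3 and 106 CPM without (3.46 ± 0.08), Nod2 rose by 3.22 ± 0.13 and Casp4, encoding caspase-11, which binds LPS in the cytosol, by 1.75 ± 0.14. The adaptor Pycard and the protease Casp1 were not called (0.01 ± 0.09 and 0.12 ± 0.09). Txnip, an inhibitor of thioredoxin and of glucose uptake that also binds NLRP3, fell to 76.1, 69.6 and 79.1 CPM with LPS, against 352, 359 and 399 CPM in unstimulated cells (-2.30 ± 0.09). Ptgs2, encoding the inducible cyclooxygenase, had 301, 291 and 362 CPM with LPS and 3.59, 1.03 and 0.939 CPM without (7.33 ± 0.19). In all 4 of 16 tested prostaglandin and leukotriene genes rose and none fell (4 and 3 by library-size scaling), with a median of 0.14. The shares over all tested genes were 10.8% and 11.4%. Among the 4 was Ptger4, a receptor of prostaglandin E2 (0.95 ± 0.11).

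Proteases and clotting genes rose in 13 of 23 cases and fell in 2 (13 and 4 by library-size scaling). The collagenase Mmp13 had 420, 439 and 378 CPM with LPS and 59.6, 62.3 and 57.1 CPM without (2.79 ± 0.08). Plat, encoding tissue plasminogen activator, had 235, 167 and 212 reads with LPS and 0, 0 and 1 without, a ratio of 890 (159 to 35200). F3, tissue factor, which starts clotting, had 29.9, 33 and 35.5 CPM with LPS and 0.829, 0.735 and 0.939 CPM without (5.27 ± 0.23), and Thbd, thrombomodulin, which restrains it, had 2.85, 1.8 and 4 CPM with LPS and 15.2, 14.5 and 15.2 CPM without (-2.39 ± 0.24). Tissue factor and thrombomodulin thus moved in opposite directions with no overlap of libraries.

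Of 18 tested genes of the BCL2 family and survival, which include members that promote death, 7 rose and 3 fell. Mcl1 had 1400, 1320 and 1410 CPM with LPS and 444, 409 and 488 CPM without (1.62 ± 0.08), and Bcl2l11, which encodes the killer protein BIM, rose too, with 649, 603 and 725 CPM with LPS and 107, 95.2 and 103 CPM without (2.69 ± 0.09). Bcl2a1b (2.96 ± 0.18) and Bcl2a1d (4.14 ± 0.17) were higher, but these near-identical copies can share reads, so their separate values are uncertain. Bcl2l1 (-0.31 ± 0.07) and Bid (-0.49 ± 0.09) were lower. Of 31 small GTPases and their regulators 19 rose and 5 fell. Marcksl1, an actin-binding substrate of protein kinase C, had 966, 908 and 1120 CPM with LPS and 32.6, 31.7 and 46.2 CPM without (4.77 ± 0.15), Gem rose by 7.03 ± 0.26 and Rnd1 by 5.24 ± 0.24. Rhov fell to 5.9, 7.86 and 7.76 CPM with LPS, against 37.3, 34.1 and 41.9 CPM without (-2.40 ± 0.17), and Rgs2, a brake on G protein signals, fell (-1.31 ± 0.09). Among 14 tested genes for purines and metabolite sensing 5 rose and 1 fell (5 and 2 by library-size scaling). Gpr84, a receptor of medium-chain fatty acids (5.33 ± 0.13), Adora2a (3.60 ± 0.33) and Adora2b (1.75 ± 0.15), which bind adenosine, rose, and Gpr35 (-1.50 ± 0.23) fell.

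Metabolic genes tied to inflammation rose in 17 of 29 cases and fell in 1. Acod1, the enzyme that makes itaconate, had 364, 285 and 384 CPM with LPS and 3.18, 0.882 and 1.13 CPM without (7.56 ± 0.21). Sod2, the mitochondrial superoxide dismutase, had 324, 331 and 352 CPM with LPS and 45.1, 46.7 and 42.8 CPM without (2.90 ± 0.10), and the hexose transporter gene Slc2a6 (3.71 ± 0.13), the cystine transporter Slc7a11 (2.96 ± 0.14) and Odc1, the first enzyme of polyamine synthesis (1.20 ± 0.10), rose. Nos2, encoding inducible nitric oxide synthase, had no reads in any of the 6 libraries. That allows up to 0.224 CPM with LPS and 0.155 CPM without when 3 counts are taken as a group's floor. Nos2 is among the 29 through its reads in other groups, so it could not be called here. Arg1 had 0, 1 and 0 reads with LPS and 2, 2 and 2 without, and was not called.

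The series asked about NAD+, oxidants and DNA damage, and the lists for these differed in their share of called members, beside 22.2% of all genes. Of 29 tested genes of NAD+ synthesis and use 5 rose and 2 fell (3 and 5 by library-size scaling), with a median of 0.04. The 29 include a member kept through other groups that had no reads in the compared libraries and could not be called. Tiparp, a mono-ADP-ribosyltransferase, had 107, 102 and 119 CPM with LPS and 47, 44.1 and 55.2 CPM without (1.17 ± 0.09), and Parp14, of the same class, rose by 0.68 ± 0.13. Nampt, which makes the NAD+ precursor NMN from nicotinamide, had 133, 128 and 117 CPM with LPS and 96.2, 90.5 and 111 CPM without (0.35 ± 0.07); with library-size scaling it was 0.16 and not called. Nadk, NAD+ kinase, was at 0.22 ± 0.07, a call lost in 6 alternatives with adjusted p up to 0.76. Sirt1 was higher (0.45 ± 0.10) and Sirt7 (-0.27 ± 0.09) and Parp11 (-0.39 ± 0.13) lower, but the calls of Sirt7 and Parp11 were lost in 9 and 12 alternatives, with adjusted p up to 0.14 and 0.18. Parp1, which consumes NAD+ at DNA breaks, had 155, 167 and 146 CPM with LPS and 164, 183 and 156 CPM without (-0.10 ± 0.08, adjusted p = 0.44), and the NAD+ glycohydrolase Cd38 had 0.203, 0.674 and 0.751 CPM with LPS and 0, 0.441 and 0.751 CPM without (0.51 ± 0.84, adjusted p = 0.75).

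Of 10 NADPH oxidase genes 4 rose and 1 fell (3 and 4 by library-size scaling). Cybb, the catalytic subunit gp91, had 1190, 1170 and 1290 CPM with LPS and 678, 629 and 703 CPM without (0.86 ± 0.08), and its organizer Ncf1 rose by 0.47 ± 0.08. Cybc1, a chaperone of the complex, fell (-0.56 ± 0.08). Cyba, the p22 subunit, was at 0.23 ± 0.08, a call lost in 7 alternatives with adjusted p up to 0.67. Nox1 had 9.56, 6.51 and 9.51 CPM with LPS and 2.49, 3.23 and 3.57 CPM without (1.48 ± 0.28), and Ncf4, Rac1 and Rac2 were not called (0.11 ± 0.08, 0.10 ± 0.06 and 0.00 ± 0.07). Among 25 targets of NRF2 and antioxidant genes 5 rose and 3 fell (4 and 7 by library-size scaling). Beside 10.8% higher and 11.4% lower over all tested genes, the list stood out little, with a median of 0.06. Sqstm1, the autophagy receptor p62, had 2060, 1850 and 2130 CPM with LPS and 497, 487 and 558 CPM without (1.97 ± 0.08), and Txnrd1, thioredoxin reductase (1.08 ± 0.07), and Nfe2l2, encoding NRF2 itself (0.68 ± 0.06), rose. Hmox1 (-0.11 ± 0.07) and Nqo1 (0.63 ± 0.30) were not called, and Osgin1 fell (-1.52 ± 0.14).

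Among 30 tested p53 targets and growth arrest genes 10 rose and 6 fell (8 and 9 by library-size scaling). Cdkn1a, encoding the cell cycle inhibitor p21, had 1220, 1130 and 1330 CPM with LPS and 259, 249 and 276 CPM without (2.23 ± 0.09), Gadd45b had 386, 381 and 391 CPM with LPS and 38.4, 36.7 and 40.7 CPM without (3.32 ± 0.09), and Mdm2, the ligase of p53, rose by 1.52 ± 0.08. Gadd45g fell to 12, 13.7 and 14.3 CPM with LPS, against 39, 47.2 and 46.4 CPM without (-1.73 ± 0.16), opposite to its relative Gadd45b. Of the other p53 targets, Bax (0.04 ± 0.10) and Sesn2 (0.21 ± 0.12) were not called. Of 37 DNA repair genes 3 were called, 1 higher and 2 lower (1 and 8 by library-size scaling), against 22.2% of all genes: Nbn was higher (0.53 ± 0.11), and Lig4 (-1.39 ± 0.29) and Msh6 (-0.46 ± 0.12) lower. Of 20 genes of the endoplasmic reticulum stress and heat shock responses 9 rose and 1 fell (7 and 4 by library-size scaling). Ppp1r15a, the phosphatase subunit that restores translation after stress, had 319, 350 and 316 CPM with LPS and 17.1, 18.7 and 20.3 CPM without (4.14 ± 0.09), and Ddit3, encoding CHOP, fell (-0.99 ± 0.18). Hspa1a (3.75 ± 0.26) and Hspa1b (4.64 ± 0.19) rose, but they are near-identical copies whose reads can be shared.

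The counts that follow stand beside 10.8% higher and 11.4% lower over all tested genes. Genes of mitosis, the ribosome and the mitochondrial genome gave few calls, and S phase genes gave no increase. Of 25 S phase genes none rose and 4 fell (0 and 6 by library-size scaling), led by Cdt1, which licenses origins (-0.79 ± 0.10), and of 25 mitotic genes 1 rose, Mki67 (0.55 ± 0.14; by library-size scaling it was not called and 4 members fell). Of 30 ribosomal protein genes 1 was called, Rps23 (0.22 ± 0.08, lost in 9 alternatives), and of 9 tested protein-coding genes of the mitochondrial genome none was called by edgeR, DESeq2 or limma-voom. For these the smallest adjusted p by edgeR was 0.59, and 0 had an unadjusted p below 0.05. Of 26 genes of cholesterol synthesis and efflux 5 rose and 3 fell (3 and 9 by library-size scaling), with Insig1, a sterol sensor (0.90 ± 0.09), highest and Msmo1 (-0.63 ± 0.10) lowest. Of 11 tested genes of the MYC network 3 rose and 2 fell (3 and 8 by library-size scaling), with Mxd1, an antagonist of MYC (2.57 ± 0.15), and Myc higher and Mnt (-0.75 ± 0.10) lower.

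**Figure D3:**
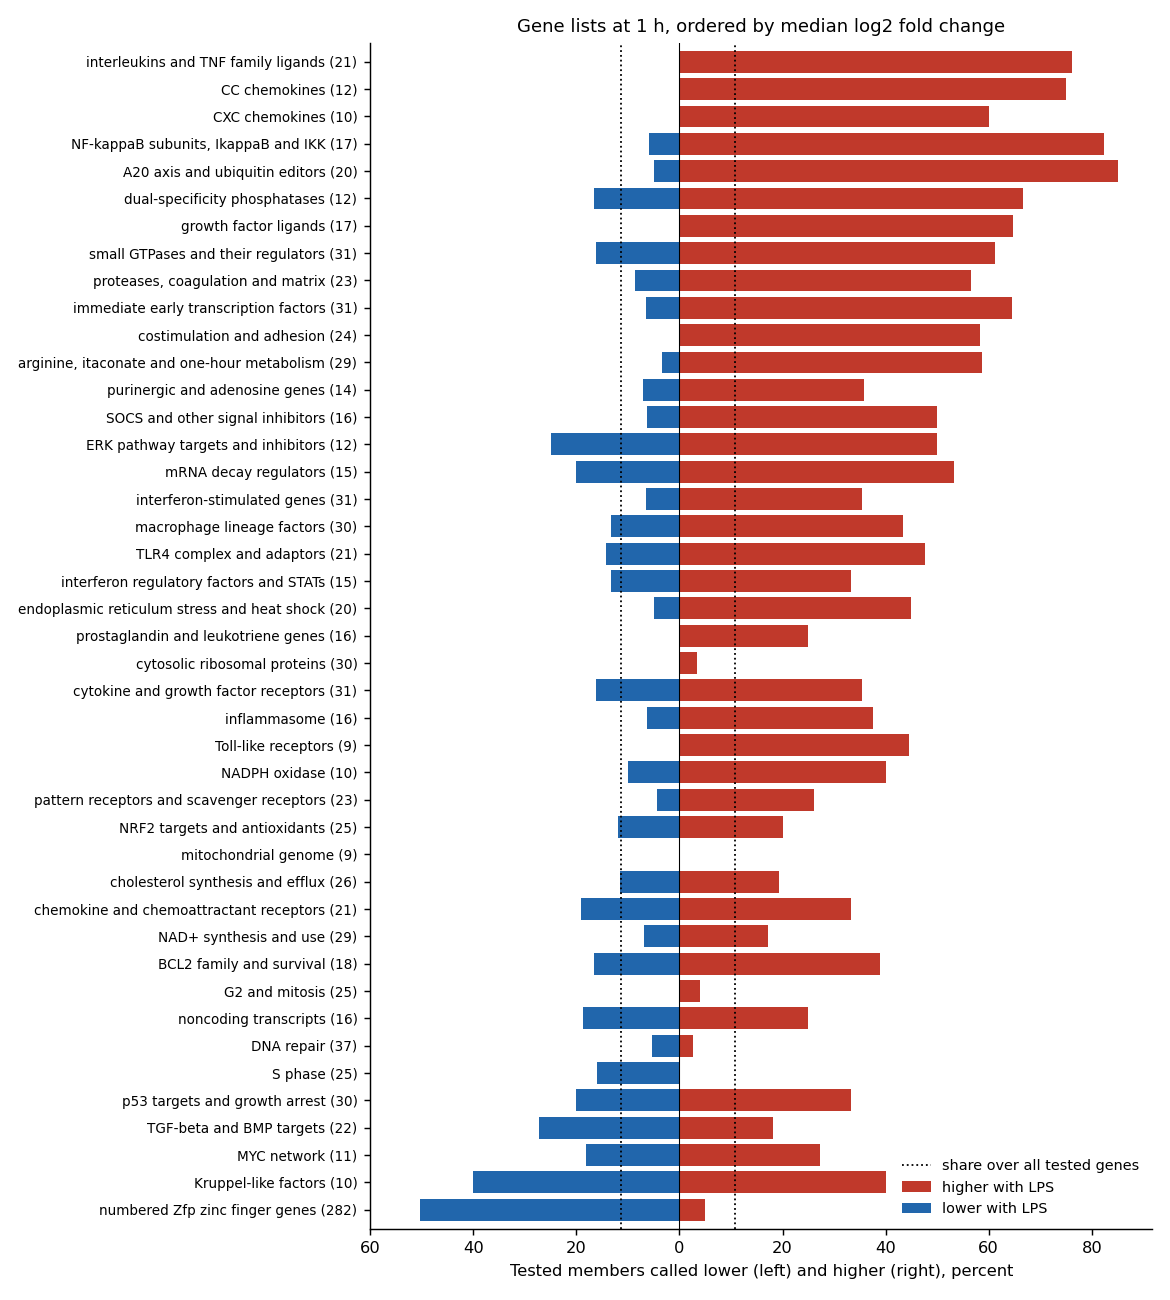
Share of tested members called higher (red, right) and lower (blue, left) with LPS at 1 h in 43 gene lists (tested members in brackets), ordered by median log2 fold change; dotted lines mark the shares over all tested genes, 10.8% and 11.4%. Interleukins and TNF ligands head the order, and numbered Zfp genes end it with 142 of 282 lower.

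Factors that define the macrophage lineage were split. Of 30 members 13 rose and 4 fell (7 and 7 by library-size scaling). Cebpa fell to 84.9, 80.6 and 75.3 CPM with LPS, against 167, 179 and 164 CPM without (-1.08 ± 0.09). Cebpb, linked to activation, had 309, 303 and 252 CPM with LPS and 118, 116 and 118 CPM without (1.30 ± 0.10), opposite to Cebpa. Tfec rose by 3.18 ± 0.12 and Spi1, encoding PU.1, by 0.47 ± 0.07. Targets and brakes of the TGF-beta and BMP pathway fell in 6 of 22 cases and rose in 4 (8 and 2 by library-size scaling). Id1 fell to 9.16, 8.98 and 7.76 CPM with LPS, against 40.2, 45.7 and 46 CPM without (-2.34 ± 0.21), with the inhibitory SMADs Smad6 (-1.78 ± 0.27) and Smad7 (-1.52 ± 0.18) and the decoy receptor Bambi (-1.52 ± 0.27). Skil, a corepressor of SMADs, rose to 561, 520 and 556 CPM with LPS, against 191, 167 and 173 CPM without (1.62 ± 0.09).

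The 20 largest decreases by the naming rule ran from -1.93 to -4.58, each with an adjusted p of 8.6e-06 or smaller, and the 20 largest increases each had an adjusted p of 2e-11 or smaller. Cd300lb, an activating myeloid receptor, had 89.1, 86.5 and 97.3 CPM with LPS and 376, 352 and 401 CPM without (-2.05 ± 0.07). Hhex, a homeobox repressor, had 6.31, 8.98 and 6 CPM with LPS and 35.9, 37.3 and 37.2 CPM without (-2.37 ± 0.13), and Cnr2, the cannabinoid receptor of immune cells, had 8.14, 6.51 and 7.26 CPM with LPS and 39.4, 34.1 and 36.4 CPM without (-2.32 ± 0.15). None of these 3 overlapped between groups. The others were Prokr1 (-2.32 ± 0.28), Zbtb14 (-2.10 ± 0.18), Pwwp2b (-2.06 ± 0.12), Bsn (-1.97 ± 0.15), Sertad3 (-1.94 ± 0.20), Zscan22 (-1.94 ± 0.24), Zkscan8 (-1.93 ± 0.30) and Gna11 (-1.93 ± 0.22), beside Ier5l, Zfp157, Zfp329, Zfp12, Dusp6, Rhov, Thbd, Txnip and Id1. In CPM the largest losses were those of BC005537 (784, 774 and 755 CPM with LPS and 1300, 1180 and 1320 CPM without), Adam8, a surface protease (1780, 1730 and 1970 CPM with LPS and 2250, 2110 and 2190 CPM without), and Cyth4, an ARF exchange factor (430, 449 and 465 CPM with LPS and 769, 730 and 791 CPM without). Arhgap25, a RAC inhibitor, was also among the 10 largest, with 167, 164 and 162 CPM with LPS and 395, 419 and 432 CPM without (-1.34 ± 0.06).

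Many zinc finger genes whose symbol is Zfp and a number were lower. The class was taken after its values had been seen, so it carries no test. Of 282 tested members 142 were lower and 14 higher, and the median was -0.66 (188 and 10, with a median of -0.85, by library-size scaling). At least 2-fold changes were 88 lower and 8 higher. Zfp157 had 1.22, 1.57 and 1.5 CPM with LPS and 9.4, 10.6 and 9.57 CPM without (-2.78 ± 0.27), Zfp329 had 1.83, 1.12 and 1.75 CPM with LPS and 9.54, 6.47 and 9.76 CPM without (-2.43 ± 0.32), and Zfp12 had 3.66, 1.8 and 2 CPM with LPS and 9.68, 11.2 and 8.45 CPM without (-1.94 ± 0.26). The class is defined by symbol alone and holds Zfp36, an RNA-binding protein of another kind and its largest increase; Zfp131 (1.89 ± 0.09), Zfp703 (1.71 ± 0.10) and Zfp263 (1.50 ± 0.11) rose too.

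Of 882 tested noncoding genes 78 rose (8.84%) and 64 fell (7.26%), beside 10.8% and 11.4% of all tested genes. Mir155hg, the host transcript of the microRNA miR-155, had 158, 128 and 116 reads with LPS and 1, 0 and 2 without, a ratio of 194 (66 to 946). Several of the largest changes were antisense to a protein-coding gene that changed the same way. Gm14023, opposite Il1a, had 411, 374 and 366 reads with LPS and 1, 3 and 0 without, and Gm15441, opposite Txnip, had 85, 95 and 91 reads with LPS and 658, 715 and 600 without. Gm26885, opposite Pim1, rose by 4.00 ± 0.11 and Kdm6bos, opposite Kdm6b, by 3.93 ± 0.18. The kit marks strand, but whether reads were counted by strand is not given, so reads of such partners cannot be told apart. Neat1, the scaffold of paraspeckles, fell, with 278, 254 and 317 CPM with LPS and 800, 400 and 541 CPM without (-1.04 ± 0.20). The unstimulated libraries of Neat1 spread widely, with replicate 1 highest, but did not overlap the LPS libraries. Malat1 was not called (-0.08 ± 0.25). Of the genes named in this text, 72 overlap exons of a gene on the other strand and share this limit, among them Il1b, Il1a, Csf2, Tnfsf9, Nfkb2, Nfkbib, Icam1, Junb, Irf1, Dusp1, Cxcl10, Cdkn1a, Zfp36, Zfp36l2, Tnfaip2, Plek, Sqstm1 and Txnip.

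Genes that changed by at least 2-fold were shorter than those not called. Over protein-coding genes the median span was 16.3 kb for the higher, 14.4 kb for the lower and 25 kb for genes not called, and the median number of exons was 6, 5 and 10. Genes of 1 or 2 exons made up 14% of the higher, 16.9% of the lower and 4.22% of those not called. The AU-rich nonamer TTATTTATT, looked for on the sense strand of annotated 3′ UTRs, was found in 13.4% of the higher, 10.4% of the lower and 7.22% of those not called. The median length of these 3′ UTRs also differed, at 1327, 1747 and 1264 bases in the same order, and the median density of the pentamer ATTTA was 1.88, 1.17 and 1.23 per kb. By this density the lower class was not above the genes not called. Promoter windows were read for 6 motifs. The NF-kappaB consensus was found in 13.9% of 504 windows of higher genes, 1.24% of 322 of lower genes and 4.62% of 8766 of genes not called. For the AP-1 heptamer TGANTCA the shares in the same order were 10.7%, 6.52% and 5.16%, for the interferon-response core (GAAA, any pair of bases, GAAA) 6.35%, 2.8% and 3.38%, and for the hexamer TATAAA on the sense strand 45 to 21 bases before the start 4.37%, 1.24% and 0.707%. The cyclic AMP element TGACGTCA (3.37%, 3.42% and 3.03%) and the SRF CArG box (1.98%, 2.17% and 1.13%) lay closer together. At least 80.3% of the protein-coding genes of each class had a window, the rest are not covered, and both strands were read except for TATAAA. These are descriptions with no test. The classes also differ in level, with a median unstimulated level of 13.3 CPM for the higher, 7.16 CPM for the lower and 26.9 CPM for genes not called.

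**Figure D4:**
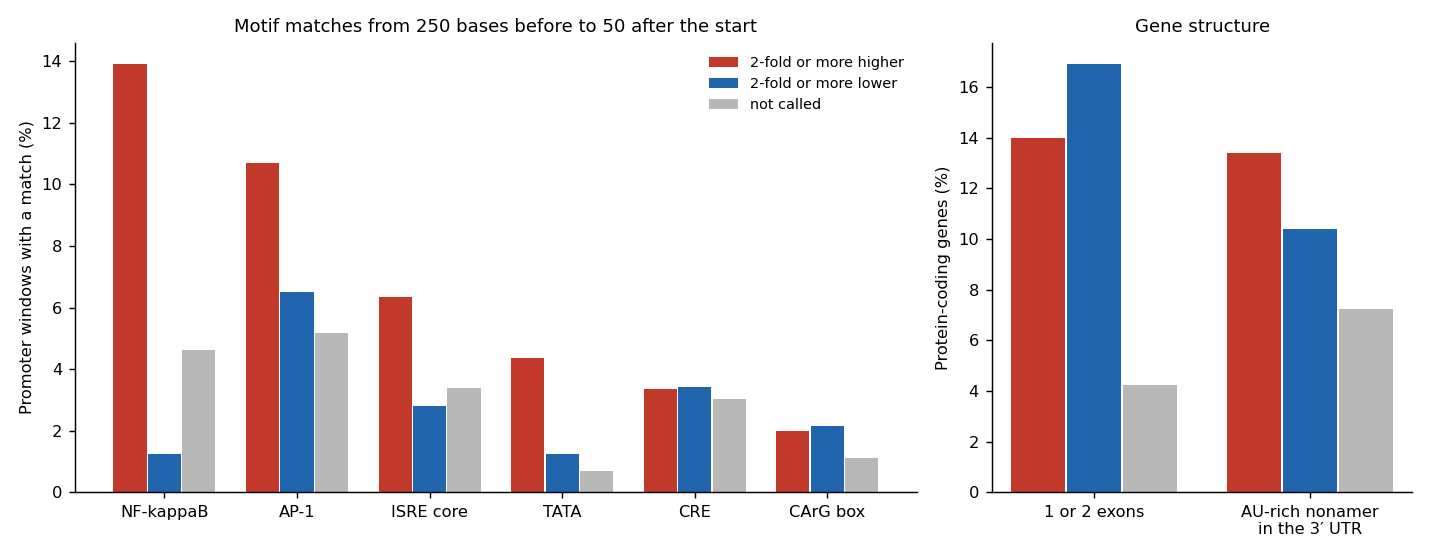
Left, share of promoter windows (250 bases before to 50 after the start) holding each motif, in percent, for genes at least 2-fold higher (red), at least 2-fold lower (blue) and not called (grey) at 1 h. Right, share of protein-coding genes with 1 or 2 exons and with the AU-rich nonamer in the 3′ UTR; the NF-kappaB consensus reaches 13.9% in the higher and 1.24% in the lower class.

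Against the response at 18 h, measured in other libraries, most early increases were called higher again, and most early decreases were not called lower. As no LPS dose is tied to the 1 h libraries, a difference in dose cannot be told apart from the difference in time. At 18 h 8055 genes (63.1% of those tested) were called, 4055 higher (31.8%) and 4000 lower (31.3%). Of the 541 genes at least 2-fold higher at 1 h, 365 (67.5%) were called higher at 18 h, 66 (12.2%) lower and 110 not. Of the 385 at least 2-fold lower at 1 h, 114 (29.6%) were called lower at 18 h, a share near the background, 69 higher and 202 not. The difference between the responses was called for 6919 genes (54.2%). Since the 1 h libraries enter both that contrast and the choice of genes, its values are given by gene.

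Egr2, at 438, 441 and 419 CPM with LPS and 56.7, 52 and 60.8 CPM without at 1 h, averaged 1.27 CPM with LPS and 41.4 CPM without at 18 h, below the unstimulated level; the responses differed by -7.94 ± 0.24 (18 h minus 1 h, adjusted p = 6e-21). Tnfsf9 averaged 7.73 CPM with LPS and 6.2 CPM without at 18 h, back near its unstimulated level (-7.70 ± 0.27, adjusted p = 1.6e-19). Cdk5r1, an activator of CDK5, at 75.3, 77.5 and 72.8 CPM with LPS and 4.84, 2.35 and 2.44 CPM without at 1 h, averaged 0.981 CPM with LPS and 3.52 CPM without at 18 h (-6.28 ± 0.41). Sele, Lif, F3 and Lrrc32, the last a surface protein that binds latent TGF-beta, had no more than 2 reads in the LPS libraries at 18 h, so no fold is given for them there. Tnf (2.73 ± 0.13 at 18 h), Nfkbiz (3.15 ± 0.14) and Tnfaip3 (2.47 ± 0.10) were called higher at 18 h too. Il1b was 9.99 ± 0.32 at 18 h, and a difference from 1 h was not called (adjusted p = 0.97).

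Other genes responded more strongly at 18 h than at 1 h; the values in brackets are again differences between the responses. Ccl5 averaged 3750 CPM with LPS and 1.95 CPM without at 18 h (5.90 ± 0.45, adjusted p = 3.4e-12), Rsad2, encoding the antiviral enzyme viperin, 2780 CPM with LPS and 15.3 CPM without (5.24 ± 0.31), and Gbp2, an interferon-induced GTPase, 957 CPM with LPS and 8.69 CPM without (5.39 ± 0.26). The complement gene C3, at 48.4, 39.3 and 66.3 CPM with LPS and 13.7, 11.9 and 14.1 CPM without at 1 h, averaged 1470 CPM with LPS and 12.6 CPM without at 18 h (4.91 ± 0.30), and Socs1 rose further (4.84 ± 0.39). Rhov and Il21r changed direction: both were lower at 1 h, and at 18 h Rhov averaged 74.1 CPM with LPS and 15.2 CPM without, and Il21r 145 CPM with LPS and 12.2 CPM without (4.68 ± 0.21 and 4.82 ± 0.25).

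**Figure D5:**
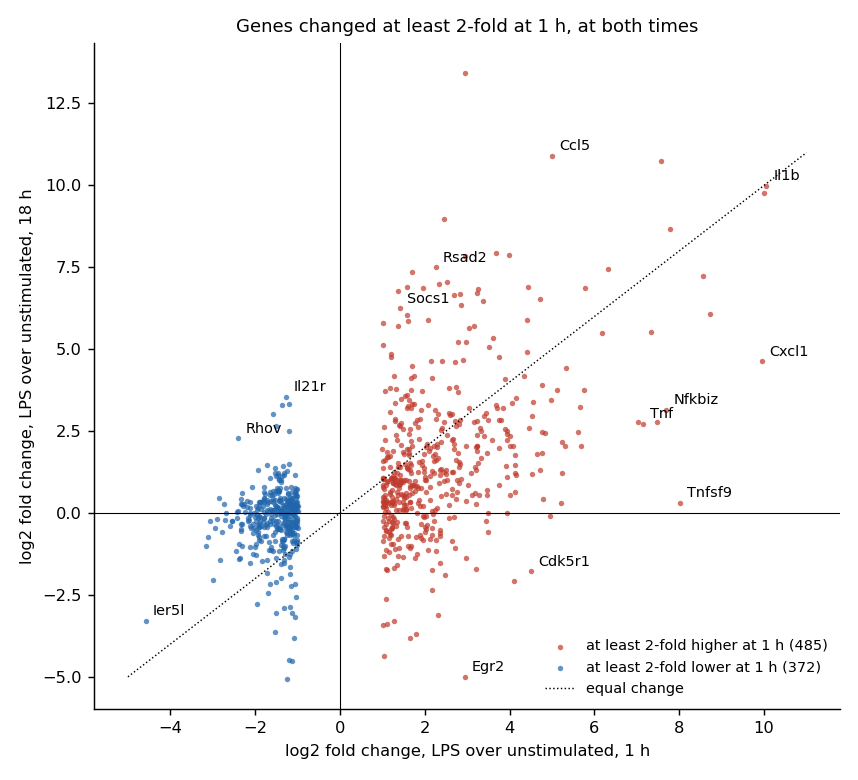
Log2 fold change of LPS over unstimulated at 18 h (vertical) against that at 1 h (horizontal) for genes changed at least 2-fold at 1 h and with over 3 reads in each of the 4 groups, 485 higher (red) and 372 lower (blue); the dotted line marks equal change. The median of the higher genes was 1.94 at 1 h and 1.23 at 18 h, and that of the lower genes -1.41 at 1 h and -0.08 at 18 h. The genes were chosen by their change at 1 h, which by itself makes the 1 h medians larger, so the medians do not measure a loss of response.

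When IFNg was given with LPS for the same hour, 1502 genes (11.8%) differed from LPS alone, 832 higher (6.52%) and 670 lower (5.25%). This comparison shares the LPS libraries with the main one. As no LPS dose is tied to these libraries, a difference in dose cannot be told apart from the added IFNg. Among the early LPS genes, Il10 fell to 21.2 ± 4.87 CPM with LPS and IFNg, against 218 ± 29.4 CPM with LPS (mean ± SD, n = 3 each; -3.36 ± 0.13, adjusted p = 3.5e-18). Il23a (0.63 ± 0.144 CPM with both and 9.45 ± 0.806 CPM with LPS), Csf2 (2.63 ± 0.198 CPM with both and 18.5 ± 0.643 CPM with LPS), the transporter gene Slco4a1 (1.3 ± 0.639 CPM with both and 19.9 ± 2.86 CPM with LPS) and the semaphorin gene Sema6d (2.19 ± 0.18 CPM with both and 12.7 ± 1.12 CPM with LPS) were also lower with IFNg added. Il1b averaged 567 ± 147 CPM with both and 1550 ± 238 CPM with LPS (-1.46 ± 0.16). Acod1 averaged 2200 ± 159 CPM with both and 344 ± 52.5 CPM with LPS (2.68 ± 0.12) and Socs1 256 ± 29.3 CPM with both and 9.79 ± 1.1 CPM with LPS (4.70 ± 0.13), both higher with IFNg added. Tnf did not pass the test (0.23 ± 0.10, adjusted p = 0.16). The chemokine gene Cxcl9, with 1, 2 and 0 reads in the LPS libraries, averaged 1280 ± 40.6 CPM with IFNg added, and Cxcl11 averaged 126 ± 12.2 CPM with both and 0.602 ± 0.261 CPM with LPS.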

How the data were processed

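The deposited files, 1 for each of 24 libraries, hold raw read counts per Ensembl gene from the authors, without a header or normalization; whole numbers with unequal totals were checked on the files. The submitters' processing notes name GRCm38 as the build and STAR, featureCounts, DESeq2 and deepTools as tools, with no versions. Annotation and strand setting are not given in the sources used here. The kit was a stranded mRNA kit, per the labels. Of 43629 identifiers 42548 matched GENCODE M21, which gave names, positions and opposite-strand overlaps; 1081 did not match.

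Groups came from the labels. Genes were kept with filterByExpr over all 8 groups (minimum count 10), 12765 tested and 30864 not. After TMM scaling, edgeR 4.0.16 (R 4.3.3) was fitted over all 8 groups; quasi-likelihood tests were two-sided with Benjamini-Hochberg adjustment over the tested genes, called below 0.05. The SE of a fold change is its size over the root of the F statistic. Where a group had 0 counts, its fold is bounded by taking 3 for the group; where it had 1 to 3, a ratio is given with an exact 95% interval. Both cover counting error only. The common biological coefficient of variation was 0.0736. No library pair agreed within sampling noise (chi-square per gene 1.71 to 3.61). The fit was tested on simulated counts.

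Genes were named as the 20 largest called increases and decreases with a mean of at least 5 CPM and no overlap, the 10 largest gains and losses in CPM, up to 6 called members of a list in each direction, members of the receptor, NF-kappaB, cytokine, NAD+ and oxidase lists whether called or not, and the 8 at each end of the other comparisons; not all are printed, and a few genes are not reported here. Other genes given as not called, and comparisons of relatives, were picked after their values were seen. The comparison, the gene lists and the rules were chosen with earlier results of these data known. Promoter windows are from RefSeq (GRCm38.p6). Alternatives were library-size or median-of-ratios scaling, no filter, DESeq2 1.42.0, limma-voom (limma 3.58.1), an adjusted p of 0.01, the compared groups only, a replicate block, each replicate left out, and, chosen after seeing the data, the block with the compared groups only.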

Additional observations from a re-analysis of the deposited data

Results flagged for a closer look

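For 10 genes of the naming rule with over 3 reads in each group, the response to LPS at 18 h differed from that at 1 h by the interaction test (edgeR, Benjamini-Hochberg, adjusted p of 1.2e-11 or smaller), in log2 units of 18 h minus 1 h. Lower at 18 h were Egr2 (-7.94), Tnfsf9 (-7.70) and Cdk5r1 (-6.28), which were all higher with LPS at 1 h. Higher at 18 h were Ccl5 (5.90), Gbp2 (5.39), Rsad2 (5.24), C3 (4.91) and Socs1 (4.84), which had risen at 1 h by less, and Il21r (4.82) and Rhov (4.68), which had fallen at 1 h. The rule asked for a call at 1 h and the largest differences, so these sizes describe the extremes of the comparison. Of the other 6 genes that the rule took, Sele, F3, Lif, Lrrc32, Plat and Cxcl3, each had 3 reads or fewer in a group. Cxcl3 averaged 64.4 CPM with LPS and 0 CPM without at 18 h.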

How the results depend on the processing

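Library-size scaling was the setting that moved a count of calls at 1 h by over 1.5 times: it gave 4443 calls (895 higher, 3548 lower), 2356 of them shared with TMM, and the median of all genes moved to -0.19. It also raised the genes lower with IFNg added to LPS to 1011, against 670 with TMM. Under the same scaling the 18 h minus 1 h difference had 2378 genes higher and 4616 lower, against 3452 and 3467 with TMM. Under the other alternatives the 1 h calls ran from 2027 at an adjusted p below 0.01 to 3248, with 2601 by DESeq2, 2761 by limma-voom and 2629 for the 6 libraries alone. Leaving out a library gave 2323 to 2607 calls at 1 h, 6607 to 6926 for the difference between times and 1278 to 1334 for added IFNg. The replicate block gave 3046, 7145 and 1645 calls, and 3248 at 1 h with the compared groups only, a fit chosen after seeing the data. The numbers share nothing in the labels, and the correlations of deviations at the same number were 0.029, 0.177 and 0.119, 1 of them under 0.1, so the pairing was not used. Each library but unstimulated replicate 1, which correlated best with LPS replicate 3 (0.04), correlated best with its own number, a hint from the data and not from the design. Of 290 genes named, 259 stayed on their side of the threshold in every alternative, and over 4334 values 88 lost a call, 24 gained one and 1 was called with the opposite sign, Rac2 at -0.18 with library-size scaling. Of 255 genes called at 1 h 0 changed sign under an alternative, and of 35 not called 18 did. Depth limited the tests to 12765 genes, and genes with few reads in a group have only a bound or a ratio.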
